A study of Homo sapiens with 8 samples.

Results

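Long H3K9me3 domains are unbroken stretches of enriched chromatin over 16 kb. They were taken on chromosomes 1 to 18 and 20 to 22 from 3 deposited lists of enriched intervals, 1 for each cell state. Of 124708 intervals in all, 1191 met this rule. They were 482 in parental cells, 247 in drug-tolerant persisters and 462 in persisters given trichostatin A. The domains were chosen by length, the measured value in the rule, so their lengths and numbers are a description and carry no test. Chromosome 19, whose zinc finger gene clusters hold further long domains, was left out and enters only as a comparison.

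The cells were PC9, an established line from a human lung adenocarcinoma with an activating mutation of the EGF receptor gene. Parental cells had no drug. Drug-tolerant persisters (DTP) were the PC9 cells still alive after 8 days in 1 uM erlotinib, which inhibits the kinase of that receptor. In the condition called DTP_TSA, persisters at day 8 also had trichostatin A (TSA), an inhibitor of histone deacetylases, at 50 nM for 5 hours. Chromatin immunoprecipitation with an antibody to H3K9me3 was followed by sequencing, with 1 library per state. No difference between states therefore has a replicate check, and effects of erlotinib, selection of surviving cells and library cannot be told apart.

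Trimethylation of lysine 9 on histone H3 is written mainly by SUV39H1 and SUV39H2 at satellite repeats around centromeres and by SETDB1, with TRIM28 and KRAB zinc finger proteins, at transposable elements and zinc finger gene clusters. HP1 proteins bind the mark and can recruit further methyltransferase, which is how it spreads into long domains. Such domains are known for compact, mostly silent chromatin and for keeping genes of other lineages closed. Histone deacetylases remove acetyl groups that oppose methylation of the same lysine.

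In parental cells the long domains were 2.17% of the 22262 intervals on these chromosomes but held 13.8 Mb, or 12.5% of the covered length. The DTP domains were 0.565% of 43733 intervals and held 7.40 Mb, 5.07% of the covered length. The DTP_TSA domains were 0.954% of 48450 intervals and held 12.6 Mb, 7.93% of the covered length. A usual long domain was of like size in the 3 lists. The median was 22.2 kb (quartiles 18.4 and 30.8) in parental cells, 23 kb (18.8 and 31.7) in DTP and 21.9 kb (18.6 and 29.6) in DTP_TSA. Domains over 64 kb numbered 27, 17 and 14 in parental, DTP and DTP_TSA, and the longest measured 149.2, 162.8 and 163.8 kb. The read depth behind the lists is unknown. A deeper library or another calling threshold can join or split intervals, and the part of depth in these counts was not tested. With intervals within 2 kb joined the lists held 744, 441 and 833 long domains, so that DTP_TSA had more than parental cells.

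**Figure D1:**
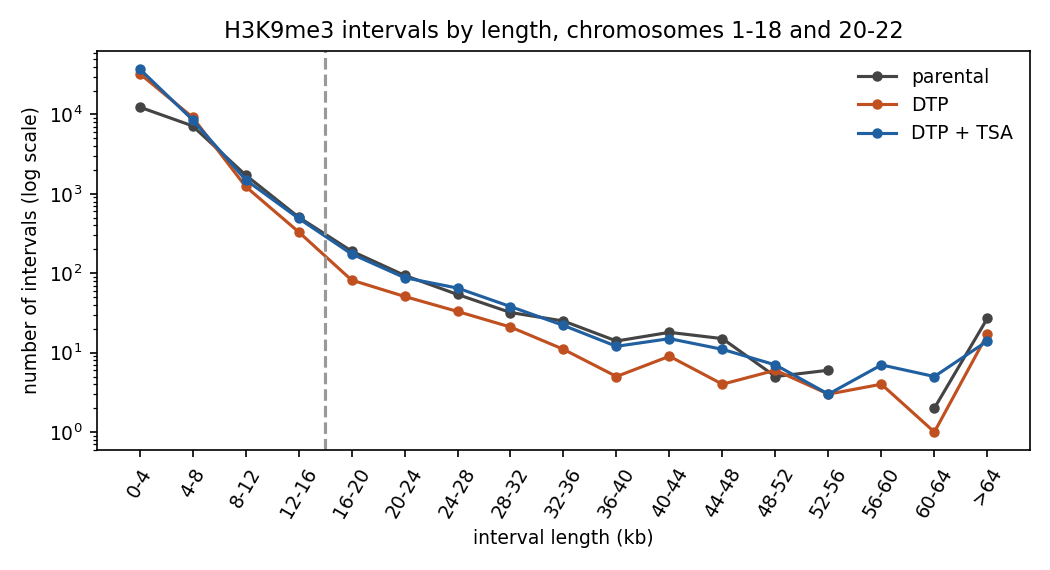
Number of intervals (log axis) in each length class (horizontal axis, kb) on the 21 chromosomes used, 1 line per list, with the 16 kb limit dashed and classes holding 0 intervals not drawn. The DTP list has more intervals than the parental one in the classes up to 8 kb and fewer in those from 8 to 16 kb (1238 against 1724, then 332 against 509), and over 16 kb it has 247 against 482.

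Intervals at the limit were few. Parental ones just over it were covered less than those just under it, a difference that was not tested. The 15 parental intervals of 16.2 kb, the shortest that entered, were covered to a median of 48.1% in DTP, and the 11 of 16 kb, the longest left out, to 65%. In DTP_TSA the medians were 44.4% and 63.75%. The lists held 5 DTP and 9 DTP_TSA intervals of 16.2 kb and 5 and 16 of 16 kb.

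The first question was what became of each parental domain in the persisters. Its share of covered length was counted on the grid of 200 bp used by the lists. A domain was called kept when 80% or more was covered in the other list, lost under 20%, and partial in between. Most parental domains were partly covered in DTP. The median covered share was 57.0% (quartiles 23.3 and 82.8), and 8.00 of the 13.8 Mb, 58.1%, was covered. Of the 482 domains 133 were kept, 27.6% (exact Clopper-Pearson 95% interval 23.65 to 31.8), 243 were partial and 106 were lost, 21.99% (18.4 to 25.96). Such intervals cover counting error only, and neighbouring domains are not independent of each other. Among all parental intervals on these chromosomes 32.3% were kept and 38.4% lost. Long domains were thus in either extreme class less often than intervals in general. With the 23842 intervals of highest mean signal in each list, 45.02% were lost in DTP and 51.5% in DTP_TSA.

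Among long domains the longer ones were covered more. Pooled coverage in DTP was 47.6% for the 284 domains of 16 to 24 kb, 53.1% for the 86 of 24 to 32 kb and 69.7% for the 112 over 32 kb. Lost domains made up 27.5% of the first class and 10.7% of the last. Parental intervals of 8 to 16 kb, below the limit, were covered to 45.3%, with 31.4% lost.

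In DTP_TSA, whose comparison uses the same parental list, the median covered share was 54.9% (quartiles 17.5 and 81.6) and the pooled share 56.5%. Here 130 domains were kept, 26.97% (23.06 to 31.2), 224 were partial and 128 were lost, 26.6% (22.7 to 30.7). The shares over all parental intervals were 31.2% kept and 40.4% lost, and over those of 8 to 16 kb 23.2% and 33.5%. Domains with no covered base at all numbered 55 in DTP, 11.4%, and 54 in DTP_TSA, 11.2%, against 36.7% and 38.4% of all parental intervals. Among parental intervals of 8 to 16 kb the shares were 26.0% and 27.3%.

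**Figure D2:**
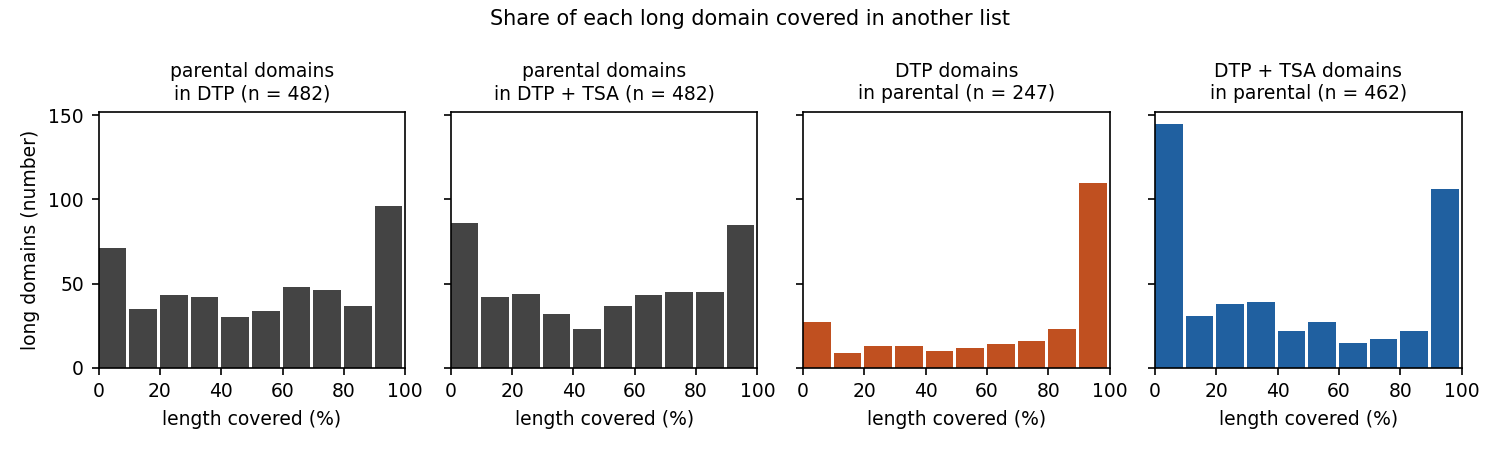
Histograms of the covered share of each long domain (horizontal axis, percent of its length, in the other list) with the number of domains on the vertical axis, 1 panel per pair of lists. The panels follow parental domains in DTP and in DTP_TSA, and DTP and DTP_TSA domains in the parental list. Parental domains spread over the whole range in both persister lists. In the parental list 110 DTP domains stand at 90% or more, and 145 DTP_TSA domains stand under 10%.

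Parental domains were often found as several shorter intervals. In DTP, 181 had 1 covered piece, 148 had 2, 53 had 3 and 45 had 4 or more, with a maximum of 19. In all, 246 of 482 lay in at least 2 pieces, 51.0% (46.5 to 55.6). Of all parental intervals, most of them far shorter, 3.91% did so, and the share was 14.5% at 8 to 16 kb, 40.5% at 16 to 24 kb and 71.4% over 32 kb. In DTP it was 29.2% with intervals within 5 kb joined, 32.1% among intervals above the median signal of their list and 26.8% in lists of equal number. The median longest piece was 9.4 kb, and 119 domains still held a piece over 16 kb. In DTP_TSA 248 domains lay in at least 2 pieces, 51.5%, against 4.27% of all parental intervals, with a maximum of 15. The same settings gave 28.1%, 33.1% and 24.1% there.

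The uncovered length lay more at the domain ends than between the pieces, a split partly fixed by its definition. A domain with 1 piece, as 181 were in DTP, can be uncovered only at its ends. Among domains over 32 kb with some cover in DTP, 47.3% of the uncovered length lay between pieces. Of 5.78 Mb uncovered in DTP, 1.14 Mb belonged to domains with no cover at all, 3.24 Mb lay at ends of domains with some cover and 1.39 Mb lay between pieces. In DTP_TSA the same parts were 1.11, 3.35 and 1.53 Mb of 5.99 Mb. Each domain was cut into 20 equal steps, and the mean covered share of a step was averaged over both ends. For parental domains in DTP it was 36.3% in the outermost steps and 59.0% in the middle ones. The values in DTP_TSA were 36.0% and 56.2%. Lower cover at the ends was found in every other pair of lists too, so it was not particular to parental domains. Only 283 of the 964 domain ends were covered in DTP, and 68 domains had cover at each end. Within the 10 kb on either side of parental domains, further parental intervals covered 32.7% of the bases, DTP intervals 24.2% and DTP_TSA intervals 23.9%.

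**Figure D3:**
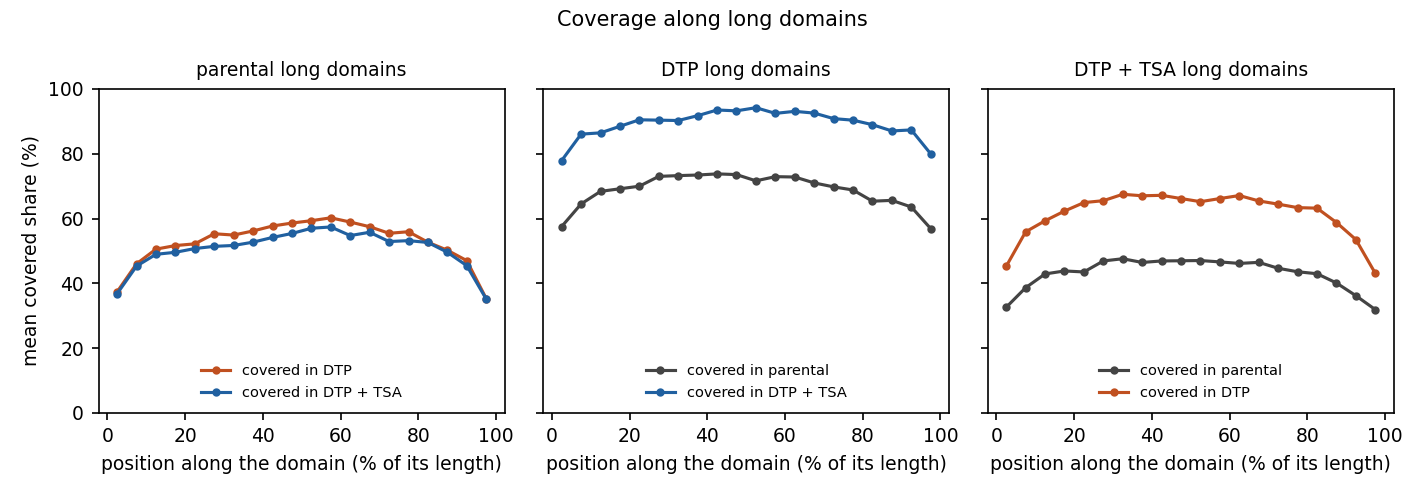
Mean covered share of long domains in another list (vertical axis, percent), 1 line per pair of lists. It is given at each of 20 steps from the left to the right end of the domain (horizontal axis, relative position). Every line is lower at the ends than in the middle. For parental domains in DTP it stands at 37.4% at the left end, 35.3% at the right end and at most 60.2% between.

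The fates of parental domains also differed by place on the chromosome. Domains were sorted by whether they lay within 5 Mb of a chromosome end, within 5 Mb of a centromeric (acen) Giemsa band, or at least 5 Mb from both, called interior here. Near chromosome ends there were 58 parental domains, and 0 were lost in DTP (upper limit of the interval 6.16%), where 31.6% of all parental intervals were. Of the 58, 34 were kept, 58.6% (44.9 to 71.4) against 40.8% of all there, and the median cover was 84.5%. In DTP_TSA 0 of these 58 were lost, against 21.1% of all intervals there. There, 42 were kept, 72.4% (59.1 to 83.3) against 53.8% of all, and the median was 91.6%. The 0 did not hold in lists cut to that equal number of strongest intervals, where 15.5% of end domains were lost in each persister list.

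Around centromeres there were 138 parental domains, of which 68 were kept and 11 lost in DTP, 7.97% (4.05 to 13.8), against 30.6% of all intervals there. The kept share was 49.3% (40.7 to 57.9), near the 41.7% of all. In DTP_TSA 59 were kept, 42.8% against 39.5% of all, and 12 lost, 8.70% against 32% of all. The 28 domains inside centromeric bands, where pericentromeric satellite and other repeats lie, were covered to 90.4% of their length in DTP and 87.5% in DTP_TSA, beside 76.3% and 71.5% for all parental intervals there. Of these, 22 were kept in DTP, 78.6% (59.0 to 91.7) against 60% of all, and 1 was lost, against 21.3% of all.

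In the interior there were 286 parental domains, the largest class. Of these 95 were lost in DTP, 33.2% (27.8 to 39.0), and 31 were kept, 10.8% (7.48 to 15.0). Among all interior parental intervals 40.1% were lost and 30.2% kept. Median cover of the interior domains was 33.95%, and pooled cover was 41.2%, beside 43.2% over all interior intervals. In DTP_TSA 116 were lost, 40.6% (34.8 to 46.5), and 29 were kept, 10.1% (6.90 to 14.2), against 43.6% lost and 27.6% kept over all. Their pooled cover was 37.7%, beside 40.3% over all. Interior long domains thus had a pooled cover near that of all interior intervals but were kept less often, and in DTP also lost less often. Near ends and centromeres long domains were lost less often than all intervals there. Most intervals are far shorter than the long domains, and the shares by place were not split by length. No test compares these classes.

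Lost domains were weaker and shorter in parental cells. The authors' mean signal within an interval had a median of 14.1 in kept, 10.97 in partial and 8.79 in lost parental domains, by their fate in DTP. Median lengths were 25.2, 22.4 and 20 kb. No domain over 51.0 kb was lost in DTP. Of the 106 lost domains 38, or 35.8%, lay in darkly staining Giemsa bands (gpos75, gpos100), which are gene-poor and AT-rich, against 12 of the 133 kept ones, 9.02%. Of all parental intervals 28.4% lay in these bands, and 40.0% of those were lost, beside 38.4% over all bands. The part of starting signal in the fate of a domain was not tested.

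**Figure D4:**
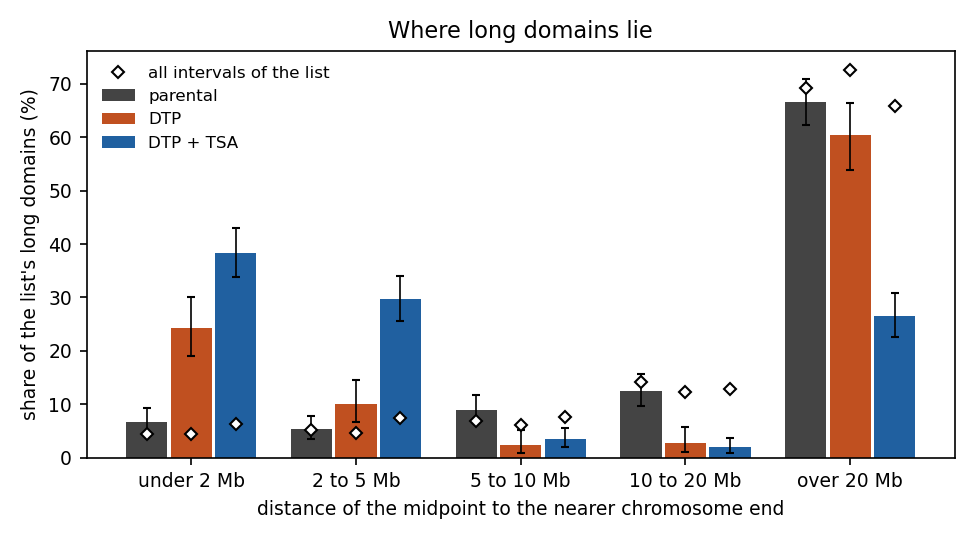
Percent of long domains in each class of distance to the nearer chromosome end (horizontal axis) for parental, DTP and DTP_TSA. Error bars are 95% Clopper-Pearson intervals, and diamonds stand for all intervals of the same list. The share under 2 Mb is 6.64% in parental cells, 24.3% in DTP and 38.3% in DTP_TSA, with diamonds at 4.47%, 4.38% and 6.28%. From 2 to 5 Mb it is 5.39%, 10.1% and 29.7%, with diamonds at 5.17%, 4.64% and 7.38%.

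The same places held different shares of the long domains in each list. Within 5 Mb of a chromosome end lay 58 parental domains, 12.03% (9.27 to 15.3), 85 DTP domains, 34.4% (28.5 to 40.7), and 314 DTP_TSA domains, 68.0% (63.5 to 72.2). All intervals of the 3 lists stood at 9.64%, 9.02% and 13.7% there. Around centromeres lay 138, 118 and 90 domains in the same order, 28.6%, 47.8% and 19.5%, beside 9.03%, 8.81% and 8.67% of all intervals. The interior held 286, 44 and 58 domains, 59.3%, 17.8% and 12.6%, beside 81.3%, 82.2% and 77.7% of all intervals. Interior long domains were therefore fewer in both persister lists, by number as well as by share. With intervals within 5 kb joined they numbered 762, 450 and 517, a smaller difference.

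The 3 longest parental domains kept in both persister lists lay on chromosomes 12, 7 and 5 (hg19). The domain chr12:133464401-133613600 in 12q24.33, 149.2 kb, was covered to 81.2% in DTP in 16 pieces and to 83.9% in DTP_TSA in 9. Its longest piece was 18.6 kb in DTP and 75.2 kb in DTP_TSA. That band, at the end of the long arm, holds a cluster of KRAB zinc finger genes, ZNF10, ZNF26, ZNF84 and ZNF268 among them. The domain chr7:56494001-56603400 in 7p11.2, 109.4 kb, was covered to 83.9% in 5 pieces in DTP and 88.7% in 3 pieces in DTP_TSA. The domain chr5:46153801-46261400 in the centromeric band 5p11, 107.6 kb, was covered whole in DTP by 1 interval and to 93.3% in 8 pieces in DTP_TSA.

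The 3 longest domains broken into at least 3 pieces in both lists lay in 2 of the same bands. The domain chr12:133614401-133751200, 136.8 kb, began 800 bp past the kept one in 12q24.33 and was covered to 77.9% in 19 pieces in DTP and 78.8% in 15 in DTP_TSA. In 7p11.2 the neighbours chr7:57148801-57283200 (134.4 kb) and chr7:57284001-57407200 (123.2 kb) were covered to 66.8% in 11 pieces and 55.5% in 8 in DTP. Their values in DTP_TSA were 71.9% in 9 pieces and 69.6% in 7. These domains were thus still largely marked in the persister lists, but as strings of shorter intervals.

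The 3 longest lost in both lists were chr3:189265201-189316200 in 3q28, chr7:50886001-50935800 in 7p12.1 and chr7:63725601-63768800 in 7q11.21. The first, 51.0 kb, was covered to 12.5% in DTP and 16.5% in DTP_TSA and held an uncovered run of 33.0 kb in DTP. The second, 49.8 kb, was covered to 5.22% and 5.62%. The third, 43.2 kb, was covered to 13.4% and 16.2%. It lay in a band where 13 of 31 long domains were kept in DTP, so lost and kept domains shared a band. No domain was kept in 1 persister list and lost in the other.

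By band, the parental domains clustered most in 7q11.21 (31), 7p11.2 (27), 3q28 (17), 8q24.21 (15) and 16p11.2 (11). These fared differently. In 7q11.21, a pericentromeric band with KRAB zinc finger genes such as ZNF107, ZNF138 and ZNF273, the median domain was covered to 75.7% in DTP and 70.7% in DTP_TSA. In 7p11.2, the band of EGFR and of further zinc finger genes next to the centromere, the medians were 37.1% and 45.9%, with 5 of 27 lost and 2 kept in DTP. The lists of intervals were not set against gene positions, so which genes the domains cover was not determined.

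The block in 3q28 was the densest group of lost domains. Its 17 parental domains, 16.4 to 60.6 kb long, lay within 1.38 Mb in a band that holds TP63, a transcription factor of squamous epithelium, and CLDN1, a tight junction protein. In DTP 13 were lost, 7 of them with no covered base, and 1 was kept. The median was 5.71%. In DTP_TSA 14 were lost and 1 was kept, with a median of 8.65%. The kept domain, chr3:188727601-188744000 (16.4 kb), stood at 97.6% and 100% covered. DTP and DTP_TSA each had 1 long domain in the band. All intervals of the band covered 0.980 Mb in parental cells, 0.320 Mb in DTP and 0.278 Mb in DTP_TSA. Whether its long domains were lost more often than its other intervals was not tested.

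In 8q24.21 the 15 parental domains, 16.6 to 37.2 kb long, reached at most 45.5% cover in DTP and 29.2% in DTP_TSA, and 8 and 13 of them were lost. Neither persister list had a long domain in this band. All intervals there covered 1.08 Mb in parental cells, 0.328 Mb in DTP and 0.254 Mb in DTP_TSA. In 16p11.2, next to a centromere and with 14 zinc finger genes, 6 of 11 were kept in DTP and 0 were lost. Its intervals covered 0.711, 0.953 and 1.23 Mb in parental cells, DTP and DTP_TSA. Of the 188 bands with a parental long domain, 108 had none in DTP and 114 had none in DTP_TSA. In the other direction, 17 of the 97 bands with a DTP long domain had none in parental cells. The same held for 31 of the 105 bands with a DTP_TSA one. A background share for these band counts, and for the kept and lost counts within single bands, was not computed.

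**Figure D5:**
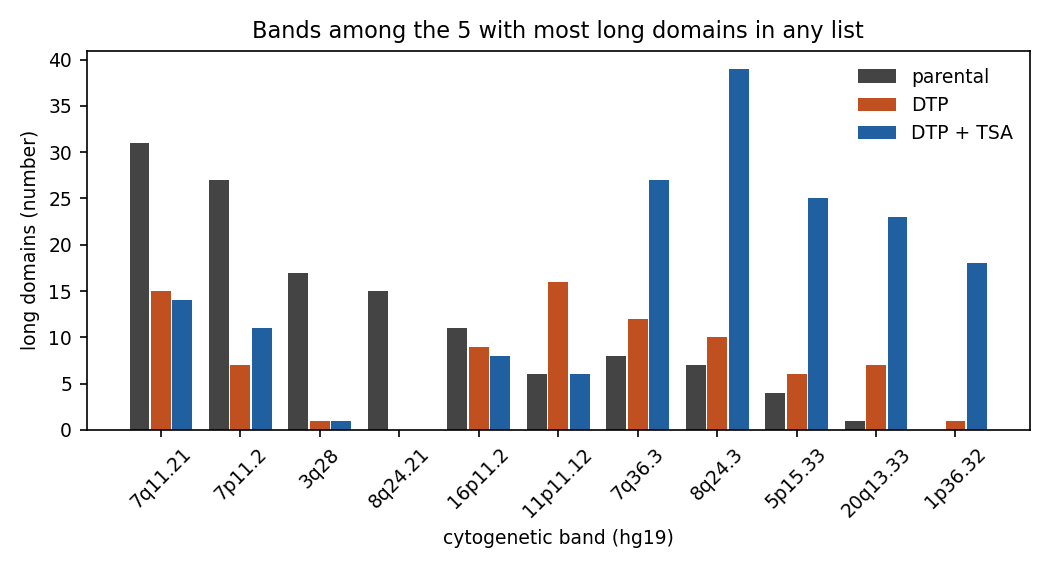
Number of long domains (vertical axis) in parental, DTP and DTP_TSA for the bands (horizontal axis) that hold most of them in any list. Interior bands such as 3q28 (17, 1 and 1) and 8q24.21 (15, 0 and 0) are mainly parental, and bands at chromosome ends such as 8q24.3 (7, 10 and 39) are mainly DTP_TSA.

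The next question was how the persister lists differed inside the parental domains. They covered mostly the same bases. Of the 13.8 Mb, 6.95 Mb was covered in both, 1.05 Mb in DTP only, 0.833 Mb in DTP_TSA only and 4.94 Mb in neither. Thus 86.9% of the length covered in DTP was covered in DTP_TSA, and 89.3% of that in DTP_TSA was covered in DTP. The median difference per domain was 0 percentage points. Cover was at least 20 points higher in DTP_TSA in 20 domains, 4.15%, and at least 20 points lower in 37, 7.68%. The same differences occurred in 10.7% and 14% of all parental intervals. The other 425 domains differed by less.

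The DTP long domains mostly lay inside parental H3K9me3. Their median covered share in the parental list was 85.6%, and 133 of 247 were kept, 53.8% (47.4 to 60.2), against 22.4% of all DTP intervals. A further 78 were partial. In DTP_TSA their median cover was 95.2%, and 200 were kept, 81.0%, against 48.8% of all DTP intervals. Only 1 was lost there, against 28.8% of all. All but 1 of the persister domains were thus at least partly marked in DTP_TSA.

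The 3 longest DTP domains that parental cells already covered were pericentromeric. The domain chr21:10698001-10860800 in 21p11.2, 162.8 kb, was covered to 99.4% in parental cells and 100% in DTP_TSA, and the authors' mean signal in it was 85.6. The domain chr5:46118401-46271400, 153 kb, spanned the kept parental domain in 5p11 and was covered to 97.0% in 4 parental intervals and 94.5% in 9 DTP_TSA intervals. The domain chr7:62355801-62447600, 91.8 kb, was covered to 93.9% in 5 parental intervals and 81.7% in 12 DTP_TSA intervals. In these cases DTP had an unbroken interval where another list had several. In all, 93 of the 247 DTP domains, 37.7%, held at least 2 parental intervals, against 0.894% of all DTP intervals, most of them far shorter. The share rose with length, from 7.45% at 8 to 16 kb to 26.3% at 16 to 24 kb and 61.7% over 32 kb.

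New DTP domains, those covered under 20% in parental cells, were few. They numbered 36, 14.6% (10.4 to 19.6) of the DTP long domains, against 66.8% of all DTP intervals, and 20 of them had no parental base, as had 66.3% of all DTP intervals. They held 0.875 Mb with a median of 21.4 kb. Of the 36, 17 lay within 5 Mb of a chromosome end, 15 within 5 Mb of a centromeric band and 4 in the interior. These were 20% of the DTP long domains near ends, 12.7% of those near centromeres and 9.09% of the interior ones, against 60%, 61.9% and 68% of all DTP intervals there. All were at least partly covered in DTP_TSA, with a median of 96.7%. Their median mean signal was 11.2, against 14.5 in the other DTP domains.

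Of the 3 longest new DTP domains, those described here were chr11:48766801-48808600 in 11p11.2 (41.8 kb, 13.9% in parental cells, 95.7% in DTP_TSA) and chr11:54987801-55028000 in the centromeric band 11q11 (40.2 kb, 11.4% and 69.7%). Chromosome 11 had 28 DTP long domains against 20 in parental cells. In 11p11.12, beside the centromere and with 10 olfactory receptor genes, there were 6 parental, 16 DTP and 6 DTP_TSA domains. All 6 parental ones were kept in DTP, and the share kept over all intervals of the band was not computed.

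New long domains were far more numerous in DTP_TSA and lay mostly near chromosome ends. They numbered 176 of 462, 38.1% (33.6 to 42.7), against 70.5% of all DTP_TSA intervals, and 130 of them had no parental base, as had 70% of all. They held 4.58 Mb, 36.3% of the length of the DTP_TSA long domains. Of the 176, 152 or 86.4% lay within 5 Mb of a chromosome end, 84 of them within 2 Mb. Another 9 lay near a centromere and 15 in the interior. New domains were 48.4% of the DTP_TSA long domains near ends, 10% of those near centromeres and 25.9% of the interior ones, against 73.8%, 63.3% and 70.7% of all DTP_TSA intervals there. In light (gneg) bands lay 149, 84.7%, beside 77.3% of all DTP_TSA long domains and 53.3% of all DTP_TSA intervals. In DTP these domains were covered to a median of 32.8%. There, 17 were kept, 99 were partial and 60 were lost, 41 of them with no DTP base. The new domains were weaker than the others of their list, with a median mean signal of 13.6 against 21.1.

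Against DTP alone, the 462 DTP_TSA domains had a median cover of 66.6%. Of these 186 were kept, 40.3%, against 50.3% of all DTP_TSA intervals, and 67 were lost, 14.5%, against 34.3%. Near chromosome ends 58 of 314 were lost, 18.5%, against 51.1% of all DTP_TSA intervals there. Hence most of the DTP_TSA long domains near ends lay where DTP had at least shorter intervals, and pooled cover of these 314 was 53.9% in DTP and 29.4% in parental cells. Around centromeres the 90 DTP_TSA domains were covered to 92.7% in DTP and 84.8% in parental cells.

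Of the 3 longest new DTP_TSA domains, those described here were chr5:1168801-1250400 in 5p15.33 and chr8:142553001-142626200 in 8q24.3. The former, 81.6 kb, was covered to 9.80% in parental cells and to 54.7% in 3 pieces in DTP, in a band that holds TERT, the telomerase reverse transcriptase gene. The latter, 73.2 kb, was covered to 17.2% and to 41.5% in 3 pieces. By contrast the 3 longest DTP_TSA domains that parental cells covered were pericentromeric. They were chr21:10698001-10861800 (163.8 kb, 99.4% in each other list), chr16:32479801-32573600 (93.8 kb, 95.3% in each) and chr10:39076601-39155000 (78.4 kb, 100% in each).

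The bands with most DTP_TSA long domains were 8q24.3 with 39, 7q36.3 with 27, 5p15.33 with 25, 20q13.33 with 23 and 1p36.32 and 2q37.3 with 18 each. All 6 adjoin or lie near the end of a chromosome arm. In parental cells they had 7, 8, 4, 1, 0 and 4, and in DTP 10, 12, 6, 7, 1 and 3. New domains were most frequent in 8q24.3 (19), 20q13.33 (16) and 5p15.33 (15). On chromosome 22 the 3 lists had 5, 2 and 33 long domains. DTP_TSA domains also lay closer together, since 278, 60.2%, had the next long domain within 50 kb, against 44.0% in parental cells and 46.2% in DTP.

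Bands rich in zinc finger genes outside chromosome 19 held more than the background share of long domains in every list. The 9 such bands, each with 10 or more zinc finger genes, had 71 parental, 44 DTP and 81 DTP_TSA domains. These were 14.7%, 17.8% and 17.5% of the long domains, against 2.76%, 2.52% and 3.29% of all intervals. Of the 71 parental ones 33 were kept and 4 lost in DTP, with pooled cover of 74.6%, and 29 were kept and 5 lost in DTP_TSA, with 73.8%. The kept shares, 46.5% (34.5 to 58.7) and 40.8% (29.3 to 53.2), were near the 43.4% and 48.5% of all parental intervals in these bands, of which 27.5% and 23.4% were lost. Of the 81 DTP_TSA domains in these bands, 39 lay in 8q24.3 and 13 in 16p13.3, at chromosome ends. At least 5 Mb from chromosome ends these bands had 57, 30 and 30 domains. These were 11.8%, 12.1% and 6.49% of the long domains, against 2.08%, 1.82% and 2.21% of all intervals. Most of them lay in bands beside a centromere. In the same order 7q11.21 had 31, 15 and 14 domains, 16p11.2 had 11, 9 and 8, and 10q11.21 had 9, 6 and 5. Long domains were above the background share around centromeres in every list, so gene content and position of these bands cannot be told apart. Bands rich in olfactory receptor genes had 19, 29 and 13 domains, 3.94%, 11.7% and 2.81% of the long domains against 2.69%, 3.16% and 3.24% of all intervals. Of the 19 parental ones 0 were lost in DTP (upper limit 17.6%), against 30.9% of all intervals there, and pooled cover was 84.6% against 61.7%. Bands of immunoglobulin and T cell receptor genes had 24, 13 and 27, which were 4.98%, 5.26% and 5.84% against 1.46%, 1.46% and 1.65% of all intervals. The protocadherin, HOX and histone gene bands had 4, 3 and 5 parental domains, 0 in DTP, and 0, 0 and 1 in DTP_TSA. Defensin and taste receptor bands had 0 in every list, and keratin-associated protein bands 0, 0 and 2.

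Long domains on chromosome 19 were followed in the same way for comparison. The 184 parental ones there were covered to 78.7% in DTP and 77.7% in DTP_TSA, with 3 and 4 lost. The 482 on the other chromosomes, with 106 and 128 lost, thus had a lower pooled cover in both. The lists held 140 DTP and 144 DTP_TSA long domains on chromosome 19. The share lost among all chromosome 19 intervals was not computed, so these counts have no background there. The difference between chromosomes was not tested.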

How the data were processed

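H3K9me3 ChIP-seq was done in 3 states of PC9 cells, 1 library each. The other samples of the series, 2 H3K4me3 and 3 input libraries, were not analysed here. Per the submitters' processing notes the tools were BWA and SICER and the builds hg19 and dm3, with neither version nor role. Which input served as control, the threshold for calling and whether libraries were scaled to each other is not given in the sources used here. Each deposited list gives intervals with a summit value and a mean value, which are the authors' signal, per the file headers. These signal values served only to describe and filter intervals within a list. Starts in the lists count from 0 and were converted to 1-based hg19 coordinates. Intervals lie on a grid of 200 bp, and no gap between neighbours was below 800 bp. No read totals come with the lists. Depth is therefore unknown, and precision rests on the number of domains alone.

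A long domain had End - Start + 1 over 16000 bp on chromosomes 1 to 18 and 20 to 22. Covered share, pieces, distances and flanks of 10 kb were computed per domain, and shares have Clopper-Pearson 95% intervals. A distance to a chromosome end was to either end of the hg19 sequence. The named domains were the 3 longest of each fate (kept in both, lost in both, in at least 3 pieces in both at 20% to 80% cover) and, for each persister list, the 3 longest new ones and the 3 longest kept ones. The named bands were the 5 with most domains in a list, and 2q37.3, 12q24.33 and the single genes given for a band were added after values were seen. The longest new domain of each persister list is not reported here. Domains, lists and rules were chosen with earlier results of these data known. Under R 4.3.3, circlize 0.4.16 gave the bands and GenomeInfoDb 1.38.1 the chromosome lengths. Gene families were placed by band name from a GRCh38 RefSeq table (59679 of 59792 genes placed, 862 of 862 hg19 band names matched), so they describe bands and not genes. Cover was computed in Python 3.11.15 with pandas 2.3.3 and numpy 2.4.6, intervals with scipy 1.17.1, and plots with matplotlib 3.10.9. This code was tested on simulated intervals with known cover. No statistical test between states was possible with 1 library each.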

Additional observations from a re-analysis of the deposited data

How the results depend on the processing

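Of 247 values recomputed under 14 settings, 138 moved by less than their counting interval or 1.5 times and 109 moved more. Parental long domains outnumbered DTP ones in 9 of 9 settings and DTP_TSA outnumbered DTP in 9 of 9, but parental outnumbered DTP_TSA in only 6 of 9. Interior parental domains outnumbered interior DTP and DTP_TSA ones in 10 of 10 settings each. Interior domains were lost more often than those near ends in 12 of 12 settings for DTP and for DTP_TSA. The share near ends was higher in DTP_TSA than in DTP and in DTP than in parental cells in 10 of 10, and new domains were a larger share in DTP_TSA than in DTP in 11 of 11. These settings share the same 3 libraries and are no replicate check. In the lists that follow, values are for parental, DTP and DTP_TSA, or for DTP and DTP_TSA. Numbers of long domains were 991, 579 and 953 over 12 kb, 744, 441 and 833 with intervals within 2 kb joined, and 1037, 828 and 1314 with those within 5 kb joined. Over 20 kb they were 292 in parental cells and 287 in DTP_TSA. Interior numbers were 647, 187 and 191 over 12 kb, 153, 22 and 27 over 20 kb, 515, 155 and 184 joined within 2 kb, and 762, 450 and 517 joined within 5 kb. Among the 300 longest intervals of each list they were 157 in parental cells and 29 in DTP_TSA. Median cover of parental domains was 63.7% and 60.4% over 20 kb, 63.5% and 60.4% for the 300 longest, 44.6% and 39.3% joined within 2 kb, and 41.5% and 37.4% joined within 5 kb. It was 35.9% and 31.2% among intervals above the median mean signal of their list, and 25.2% and 18.1% with the 23842 intervals of highest mean signal in each list. The share lost was 26.5% and 31.2% joined within 2 kb, 29.3% and 33.7% joined within 5 kb, 36.9% and 38.2% above the median signal, and 45.02% and 51.5% with equal numbers. In DTP alone it was 17.5% over 20 kb and 18% for the 300 longest. With kept and lost set at 70% and 30% it was 30.9% and 35.7%, and at 90% and 10% it was 14.7% and 17.8%. The share in at least 2 pieces was 36.3% and 38.8% over 12 kb, 56.8% and 59.9% over 20 kb, 56.7% and 59.3% for the 300 longest, 37.4% and 39.1% joined within 2 kb, 29.2% and 28.1% joined within 5 kb, 32.1% and 33.1% above the median signal, and 26.8% and 24.1% with equal numbers. New domains were 22.1% of DTP domains over 12 kb and 21.2% above the median signal. Joined within 5 kb they were 23.3% and 44.9%, with 0% cover required 8.10% and 28.1%, and with equal numbers 33.3% in DTP_TSA. The share near ends was 61.4% in DTP_TSA over 12 kb and 60.3% joined within 2 kb. Joined within 5 kb it was 26.4% and 46.3%, and without centromeric, variable and stalk bands 41.7% and 72.9%. The share of end domains lost was not 0 but 7.14% and 6.43% over 12 kb, 6.90% and 6.90% joined within 2 kb, 9.60% and 8.00% joined within 5 kb, 14.0% and 10.5% above the median signal, and 15.5% and 15.5% with equal numbers. The share of interior domains lost was 49.1% and 51.8% above the median signal, 56.6% and 64.3% with equal numbers, 46.2% and 53.1% at 70% and 30%, and 23.1% and 27.3% at 90% and 10%. Leaving out chromosome 7, chosen after seeing the data, moved none of these values beyond its spread. The cause of each shift was not tested. No paired analysis was possible because each state has 1 library.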
